A study of Mus musculus with 6 samples.

Results

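The 8 apolipoprotein genes Apoe, Apoc1, Apoa1, Apoa4, Apoc3, Apoa2, Apod and Apoh were followed across 6 mouse arrays. They were chosen by name, with earlier results of these arrays known, and make up 8 of the 17742 genes that could be named on the platform, each with 1 probe. Each array held RNA amplified from an organ of female BALB/c mice and labelled with Cy5. The groups were SHT brain, mock brain, SHT ovary, mock ovary, SHT uterus and mock uterus, with 1 array in each. SHT is Sheng-Hua-Tang, a herbal decoction that was given by mouth at 200 mg/kg for 7 days, and mock mice had no treatment. The labels do not say whether organs came from the same mice or were pooled. With 1 array per group no difference below has a replicate check, and no test or p-value is given. Because the genes were picked with these values known, all their levels are a description.

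Apolipoproteins coat lipid particles, hold them in solution and act as tags for receptors and enzymes. Most are made by liver and gut, while Apoe is also made by astrocytes, macrophages and steroid-producing cells. In the ovary, cholesterol for steroid synthesis is taken largely from high-density lipoprotein, whose main protein is Apoa1, through the receptor Scarb1. In mouse, Apoa1, Apoc3, Apoa4 and Apoa5 lie side by side on chromosome 9, and Apoc2, Apoc4, Apoc1 and Apoe lie side by side on chromosome 7.

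The promoters of the chromosome 9 neighbours are shown because Apoa1 and Apoa4 read high on the same arrays and Apoa5, in the same cluster, did not. Each run is the 250 bases before the gene's start (the most upstream of 2 for Apoa5), from RefSeq on GRCm38.p6, written 5′ to 3′ in lower case. Capitals mark matches, on either strand, to the nuclear receptor half-sites AGGTCA and AGTTCA, to CAAAGTNCA, a sequence bound by Hnf4a, or to the TATA box TATAAA.
Apoa1, chr9:46228380-46228629, + strand: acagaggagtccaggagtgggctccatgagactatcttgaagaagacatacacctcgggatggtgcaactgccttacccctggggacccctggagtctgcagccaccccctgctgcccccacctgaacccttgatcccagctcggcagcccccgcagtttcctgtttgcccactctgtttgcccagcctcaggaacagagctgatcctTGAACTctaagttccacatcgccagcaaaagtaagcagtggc
Apoa4, chr9:46240594-46240843, + strand: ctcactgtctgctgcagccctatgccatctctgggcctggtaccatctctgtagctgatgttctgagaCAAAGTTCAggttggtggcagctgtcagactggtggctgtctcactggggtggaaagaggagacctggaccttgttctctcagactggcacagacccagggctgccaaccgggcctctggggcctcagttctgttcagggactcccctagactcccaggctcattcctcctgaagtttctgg
Apoa5, chr9:46268358-46268607, + strand: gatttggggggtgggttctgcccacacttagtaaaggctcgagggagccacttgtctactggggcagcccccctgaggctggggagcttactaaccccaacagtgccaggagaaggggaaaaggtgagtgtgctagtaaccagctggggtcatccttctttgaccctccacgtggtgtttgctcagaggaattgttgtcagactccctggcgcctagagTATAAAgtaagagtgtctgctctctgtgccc
The Apoa1 promoter held 1 match to AGTTCA, on the reverse strand, 42 bases before the start. The Apoa4 promoter held 1 match to CAAAGTNCA, 182 bases before the start, which overlaps its single match to AGTTCA. The Apoa5 promoter held TATAAA 31 bases before the start and neither half-site. The promoters of Apoa2 and Apoh, which were under background on all 6 arrays, each held 1 match to AGGTCA, and that of Apoe, which was high throughout, held none of the 4 motifs. That of Apod, under background on all 6, held none either. Outside the 8 genes, Apoc4, above background on all 6 arrays, and Apoc2, under it on all 6, each held 1 match to AGGTCA. Among all 32851 promoters of that length, 14.0% held AGGTCA, 11.8% AGTTCA, 1.19% CAAAGTNCA and 12.4% TATAAA. RefSeq promoter sequence was matched for 6 of the 8 genes, and those of Apoc1 and Apoc3 were not used here.

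The tissue labels were checked against defining markers before any comparison, and 4 of the 6 arrays went against them. The 6 measured brain markers (among them Snap25, a protein of neurotransmitter release) summed to 127756 on the array labelled SHT ovary and 127870 on that labelled mock brain, against 928 to 4214 on the rest. The 8 measured ovary markers (among them Hsd3b1, a steroid-producing enzyme, and the egg coat gene Zp2) summed to 96184 on the SHT brain array and 141207 on the mock uterus array, against 1258 to 4540 on the rest. Keratin and other squamous markers summed to 207547 and 279415 on the arrays labelled SHT uterus and mock ovary, against 3625 to 5513 on the rest. The 7 uterus markers summed to 39496 and 33779 on those same arrays, against 4696 to 14622. The array labelled SHT uterus thus carried squamous markers beside uterus markers, and it is not among the 4, but its label was not shown to be right. Arrays are therefore named by their labels, and every direction is a difference between 2 labelled arrays that cannot be told apart from a difference between organs. In whole organs, fewer cells of a type and less RNA per cell cannot be told apart either.

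Background was taken from 544 probes of olfactory receptors, genes that most organs do not use, and a probe was called above background where it exceeded their 95th percentile on that array. This bound was 270 on SHT brain, 527 on mock brain, 400 on SHT ovary, 311 on mock ovary, 314 on SHT uterus and 291 on mock uterus. By this bound Apoe was above background on all 6 arrays, Apoc1 on 4, and Apoa1, Apoa4 and Apoc3 on 2. Apoa2, Apod and Apoh were above it on 0 arrays. A value under the bound does not show that a gene was silent, since a probe may fail to detect its gene.

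**Figure D1:**
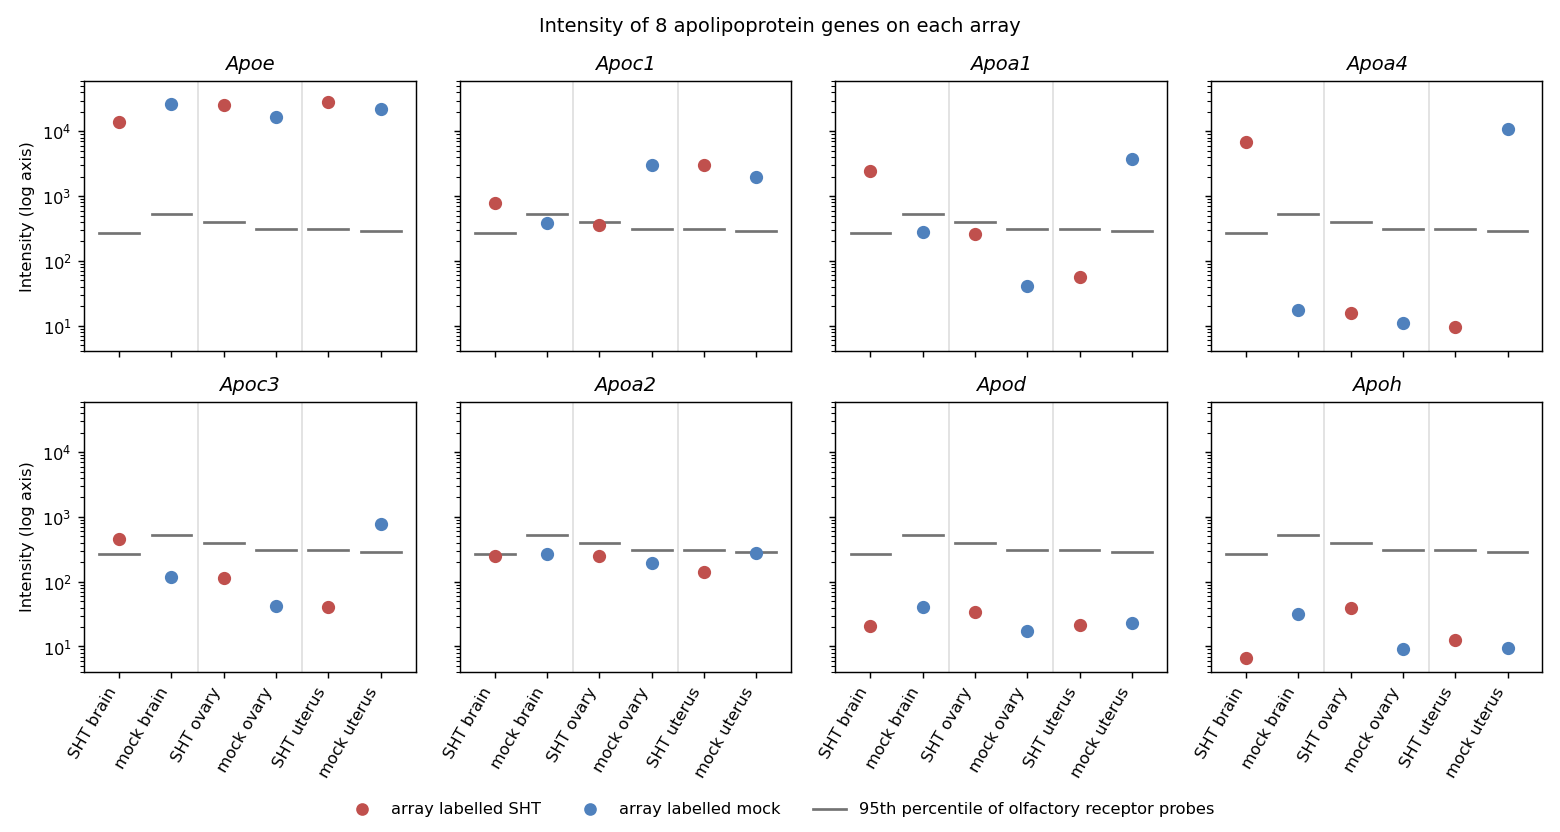
Deposited intensity (log axis) of each of the 8 genes on the 6 arrays, named by their labels, with SHT arrays in red and mock arrays in blue. The grey bars give each array's background bound (270 to 527). Apoe lies above it everywhere, Apoa1, Apoa4 and Apoc3 on the arrays labelled SHT brain and mock uterus, and Apoa2, Apod and Apoh nowhere.

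Apoe, the ligand that brings lipid particles to receptors of the low-density lipoprotein receptor family, read 14202 on SHT brain and 26378 on mock brain, 25216 on SHT ovary and 16496 on mock ovary, and 28014 on SHT uterus and 22407 on mock uterus. As a ratio of deposited intensities its highest array was 1.97-fold above its lowest, and no labelled pair differed by 2-fold. Apoe was 1.71-fold lower in the SHT array of the pair labelled brain. It was 1.40-fold higher in that labelled ovary and 1.26-fold higher in that labelled uterus. Folds between SHT and mock are relative to the median gene of the pair, whose log2 difference (SHT minus mock) was -0.12, 0.13 and -0.02 in the pairs labelled brain, ovary and uterus.

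Without replicates, the spread over genes between the most alike arrays served as a yardstick. The arrays labelled SHT ovary and mock brain were the closest of the 15 pairs (Pearson 0.996 over all probes, which are not independent), and 90% of genes differed there by at most 0.33 on the log2 scale. For SHT brain against mock uterus that value was 0.79, and for SHT uterus against mock ovary it was 1.05. Apoe differed by 0.03, 0.41 and 0.43 in size in these 3 pairs, inside the yardstick each time. From the highest level to the lowest, SHT uterus, mock brain, SHT ovary, mock uterus, mock ovary and SHT brain followed each other for Apoe.

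Markers of cells known to make Apoe peaked on different arrays. The 6 measured astrocyte markers summed to 91086 on SHT ovary and 90201 on mock brain, against 34373 to 50220 on the rest, where Gja1, a gap junction gene of many cell types, made up most of the sum. Without Gja1, a choice made after seeing the data, the other 5 summed to 68671 on SHT ovary and 67380 on mock brain, against 1850 to 3756. The 9 measured macrophage and microglia markers summed to 52409 on SHT uterus, 34653 on mock ovary and 19370 to 28973 elsewhere. The 3 measured markers of steroid-producing cells summed to 75300 on SHT brain and 96545 on mock uterus, against 1419 to 4468. The 3 highest Apoe arrays were SHT uterus, the macrophage peak, and mock brain and SHT ovary, the astrocyte peaks. Relative to the median gene, Apoe on mock brain and SHT ovary differed from SHT uterus by -0.10 and -0.05 on the log2 scale. Both are smaller than the 0.33 of the closest arrays, so the order of these 3 is not resolved. The lowest Apoe array, SHT brain, was high in steroidogenic markers. Mock ovary, next highest in macrophage markers, had the next to lowest Apoe (16496). Mock uterus, highest in steroidogenic markers, had more Apoe (22407) than SHT brain (14202). The part of these cell types in the Apoe level was not tested.

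Apoc1, a small protein of very-low-density and high-density lipoproteins that slows their uptake, read 782 on SHT brain and 390 on mock brain, 359 on SHT ovary and 2993 on mock ovary, and 2995 on SHT uterus and 1961 on mock uterus. The arrays labelled SHT uterus and mock ovary were the high ones, and both arrays with brain markers were under background. Apoc1 was at least 8.17-fold lower on SHT ovary than on mock ovary, where "at least" means that the dimmer array was under background and its bound took the place of its value. It was at least 1.61-fold higher on SHT brain than on mock brain, and 1.54-fold higher on SHT uterus than on mock uterus. Between SHT brain and mock uterus, the arrays with ovary markers, it differed by -1.08 on the log2 scale, past the 90% yardstick of 0.79 and within the 95% value of 1.14.

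Apoa1, the main protein of high-density lipoprotein and the activator of the enzyme Lcat, read 2419 on SHT brain and 285 on mock brain, 259 on SHT ovary and 40.8 on mock ovary, and 55.6 on SHT uterus and 3765 on mock uterus. It was above background on SHT brain and mock uterus. Apoa1 was at least 4.98-fold higher on SHT brain than on mock brain and at least 11.8-fold lower on SHT uterus than on mock uterus. In the pair labelled ovary both arrays were under background and no fold is given.

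Apoa4, a protein of gut-derived lipid particles and of high-density lipoprotein, had the widest range of the 8 genes. It read 6869 on SHT brain and 17.6 on mock brain, 16.0 on SHT ovary and 11.0 on mock ovary, and 9.65 on SHT uterus and 11050 on mock uterus. The high arrays were the same as for Apoa1, and the other 4 lay between 9.65 and 17.6. Apoa4 was at least 14.2-fold higher on SHT brain than on mock brain, and at least 34.8-fold lower on SHT uterus than on mock uterus.

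Apoc3, an inhibitor of lipoprotein lipase, read 455 on SHT brain and 120 on mock brain, 114 on SHT ovary and 42.0 on mock ovary, and 41.3 on SHT uterus and 779 on mock uterus. It too was above background on SHT brain and mock uterus, though nearer to it. It was at least 2.45-fold lower on SHT uterus than on mock uterus. For the pair labelled brain no fold is given, since the bound on mock brain (527) was above the SHT brain value.

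The array labelled mock uterus read 1.56-fold, 1.61-fold and 1.71-fold above that labelled SHT brain for Apoa1, Apoa4 and Apoc3 (ratios of deposited intensities). Ovary markers had ratios that straddled these: 1.14 for Star, which carries cholesterol into mitochondria, 1.28 for Hsd3b1, 1.55 for Inha, an inhibin subunit, 1.96 for Zp2 and 2.04 for Zp3. The median gene also differed between the 2 arrays, by -0.25 on the log2 scale (SHT brain minus mock uterus). Relative to it Apoa1, Apoa4 and Apoc3 differed by -0.39, -0.44 and -0.53, inside the 90% yardstick of 0.79. All 8 measured ovary markers were above background on both of these arrays. So were 5 of the 6 oviduct markers, with Ovgp1, the oviduct glycoprotein gene, at 25536 on SHT brain and 31822 on mock uterus against 45.1 to 146 on the rest. Of these 5, Rsph1 was above background on all 6 arrays. Pax8 was above it on 4, with 2067 on SHT uterus against 1316 on mock uterus. Of 7 adipocyte markers 5 and 6 were above background on SHT brain and mock uterus, and 5 on SHT uterus and 5 on mock ovary. They summed to 46918 on SHT brain and 77034 on mock uterus. On SHT uterus and mock ovary the sums were 41536 and 31710, and on mock brain and SHT ovary 865 and 487. The part of ovary, oviduct or fat cells in the level of these 3 genes was not tested.

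Markers of liver and gut, the usual sources of these proteins, were read as well. Of 10 measured hepatocyte markers 1 was above background on SHT brain and 1 on mock uterus, Fetub in each case, which was higher still on mock ovary (3308). The list summed to 961 and 1436 there and to 941 to 4004 elsewhere. Alb, the albumin gene, read at most 203 on any array and was under background on all 6. Of 9 measured enterocyte markers 0 were above background on SHT brain or mock uterus. Their sum was 464 and 446 on those arrays and 499 to 1469 elsewhere. Whether the probes under background can detect their genes is not known here. The part of liver or gut cells in the level of Apoa1, Apoa4 and Apoc3 was not tested.

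Apoa2, the second protein of high-density lipoprotein, read 254 on SHT brain and 266 on mock brain, 247 on SHT ovary and 197 on mock ovary, and 139 on SHT uterus and 282 on mock uterus. All 6 values were under the bound, by least on mock uterus. Apod, a lipocalin that carries small lipids and in mouse brain is known from glia, read between 17.4 and 40.4, far under the bound also on both arrays with brain markers. Apoh, a phospholipid-binding plasma protein also called beta-2 glycoprotein I, read between 6.68 and 39.0. Whether these 3 probes can detect their genes is not known here, and no fold is given for them.

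Of the 8 genes, 6 had a pair mean above the level floor (the median of pair means over all probes) in the pair labelled brain. There the measured values of Apoa1, Apoa4, Apoc1 and Apoc3 were at least 2-fold higher in SHT and 0 were lower, although mock brain was under background for all 4 of them and the bound leaves under 2-fold for Apoc1 and none for Apoc3. In that pair 24.7% of all 10746 genes above the floor were higher and 21.7% lower. In the pair labelled ovary 3 passed the floor, and Apoc1 was lower, where 23.0% of all genes were higher and 23.4% lower. In the pair labelled uterus 4 passed, and Apoa1 and Apoa4 were lower, where 13.1% of all genes were higher and 8.26% lower. The median log2 difference of the 6, 3 and 4 genes above the floor was 1.58, 0.20 and -2.86 in these pairs, against 0.08, 0.01 and 0.05 over all genes above it. A gene can pass the floor through the array on which it is high, and the genes were chosen with these differences known, so these values show nothing particular to them.

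**Figure D2:**
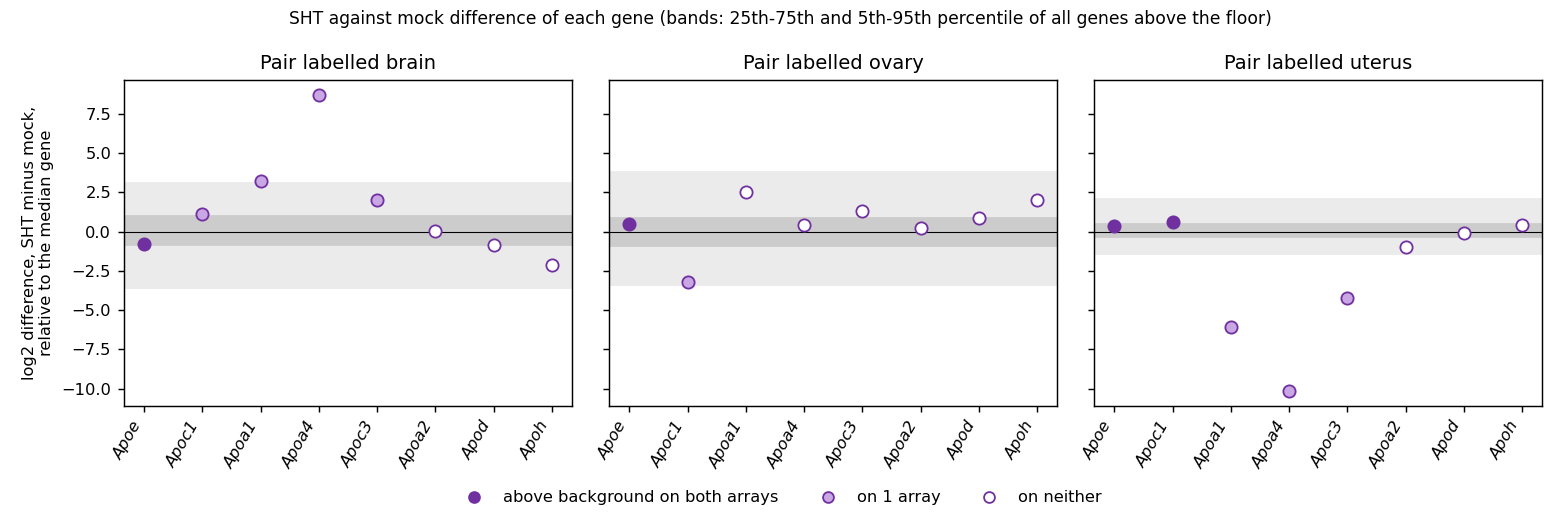
Log2 difference, SHT minus mock and relative to the median gene, of each of the 8 genes in the 3 labelled pairs, with filled, pale and open points for genes above background on both, 1 or neither array. The bands span the 25th to 75th and the 5th to 95th percentile of all genes above the level floor. Apoa4 lies at 8.73 in the pair labelled brain and at -10.14 in that labelled uterus, outside the wider band in both.

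Position along the chromosome was compared with level. On chromosome 9, Apoa1, Apoc3 and Apoa4 shared their high arrays, while Apoa5, a stimulator of triglyceride breakdown, was 2.43-fold lower on SHT brain (369) than on mock brain (971). Sik3, a kinase gene on one side of the cluster, read 3548 on SHT brain and 7565 on mock brain. Zpr1, on the other side, read 385 and 415 there. The outer neighbours differed too: Pafah1b2 read 2188 on SHT brain and 6730 on mock brain, and Bud13 read 317 and 176. On mock uterus, the highest array of Apoa1, Apoc3 and Apoa4, Zpr1 (729) and Bud13 (586) had their highest values too. Sik3 (5777) and Pafah1b2 (3265) did not. On chromosome 7, Apoc4 was above background on all 6 arrays and lay between 502 and 1030. Apoc2, the activator of lipoprotein lipase, was under background on all 6, its highest value being 230 on SHT uterus. Tomm40, a mitochondrial import gene beside Apoe, lay between 1044 and 1558. Nectin2, a cell adhesion gene next to it, was not flat: it read 716 on SHT brain and 954 on mock uterus, 555 on SHT uterus, and 65.7 to 216 on the other 3 arrays, where it was under background. Clptm1, at the other end, lay between 780 and 1446.

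**Figure D3:**
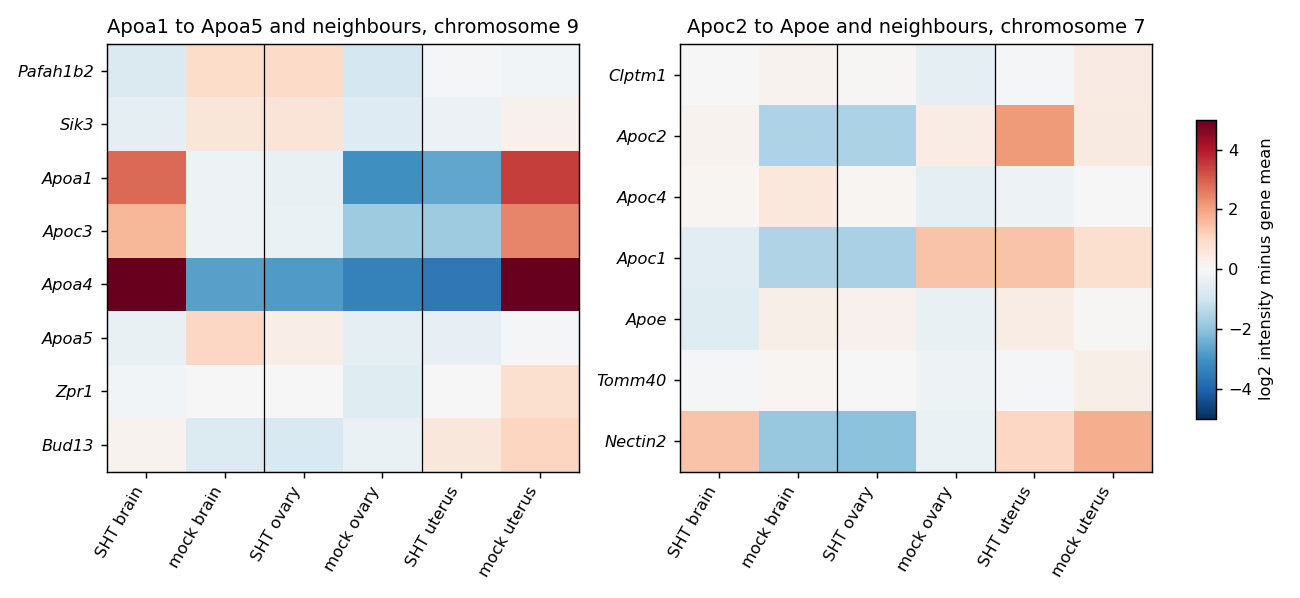
Log2 intensity minus the gene's mean over the 6 arrays (colour, which stops at 5 in either direction) for the genes of the 2 apolipoprotein clusters and their neighbours, in chromosome order from top to bottom. Apoa1, Apoc3 and Apoa4 are red on the arrays labelled SHT brain and mock uterus, and Apoa5 is not.

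For each gene above background, the genes with the most similar profile were found by the root mean square difference between log2 values over the 6 arrays, each gene centred on its own mean, among 11379 others. For Apoa4 these were Hsd3b1 (0.25), Serpina5, a protease inhibitor gene (0.36), and Oosp1, a gene of oocytes (0.40). For Apoa1 they were Ak7, an adenylate kinase of cilia (0.34), Pifo, a gene of ciliary disassembly (0.34), and the amino acid transporter Slc38a5 (0.39). For Apoc3 they were the zinc finger gene Zbtb8b (0.12), Dnah6, a dynein heavy chain of cilia (0.17), and Ubxn10 (0.19). For Apoc1 they were Lrig3 (0.27), the noncoding RNA Neat1 (0.28) and Fam189a2 (0.30), and for Apoe Slc35e3 (0.05), the RNA helicase Ddx5 (0.06) and Rcan3 (0.07). Apoa1 and Apoc3 differed from each other by 0.89, and Apoa1 and Apoa4 by 2.32. These values use levels under background too. With all values first raised to the highest bound of the 6 arrays, a choice made after seeing the data, Apoe kept its 3 genes and Apoc1 kept Lrig3 of its 3. Apoa1, Apoa4 and Apoc3 kept none, and for Apoc3 the 3 closest genes were then at 0.00, since its profile was flat but for mock uterus.

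Of 15 measured receptor and uptake genes, 12 passed the floor in each pair. In the pair labelled brain 5 were higher in SHT and 2 lower, in that labelled ovary 2 higher and 5 lower, and in that labelled uterus 0 higher and 2 lower. Over all genes, 24.7%, 23.0% and 13.1% were higher in these pairs and 21.7%, 23.4% and 8.26% lower (46.5%, 46.4% and 21.4% in either direction). The median log2 difference of the receptor genes was 0.81, -0.84 and 0.11, against 0.08, 0.01 and 0.05 over all genes above the floor. Scarb1, the receptor of high-density lipoprotein, was high on the same arrays as Apoa1: it read 9625 on SHT brain and 587 on mock brain, 547 on SHT ovary and 732 on mock ovary, and 1299 on SHT uterus and 23019 on mock uterus. It was 17.8-fold higher in SHT in the pair labelled brain and 17.5-fold lower in that labelled uterus. Lrp8, a neuronal receptor of Apoe and reelin, ran the other way in the pair labelled brain, 6.48-fold lower in SHT, and was 4.53-fold higher in SHT in that labelled ovary. Lsr, a receptor of lipolysed particles, was 11.6-fold higher in SHT in the pair labelled brain and 5.19-fold lower in that labelled ovary. Lrp1, a broad Apoe receptor, stayed between 2802 and 4766.

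Of 21 measured genes of lipid transfer, assembly and lipolysis, 15, 15 and 16 passed the floor in the pairs labelled brain, ovary and uterus. In these pairs 7, 1 and 2 were higher in SHT and 3, 7 and 3 lower, with medians of 0.97, -0.71 and 0.18. Over all genes, 24.7%, 23.0% and 13.1% were higher and 21.7%, 23.4% and 8.26% lower. Angptl4, an inhibitor of lipoprotein lipase, was 20.1-fold higher in SHT in the pair labelled brain, 10.3-fold lower in that labelled ovary and 2.99-fold lower in that labelled uterus. Soat1, which esterifies cholesterol, was at least 3.25-fold higher in the first and 4.73-fold lower in the last. Lcat, the enzyme that Apoa1 activates, read 230 on SHT brain and 1561 on mock brain, at least 5.34-fold lower. Mttp, which loads lipid onto Apob, was under background on all 6 arrays, as was Apob itself (18.4 to 32.7). The lipoprotein lipase gene Lpl was under it as well (18.3 to 104), also on the arrays with adipocyte markers. Whether the probes of Mttp, Apob and Lpl can detect their genes is not known here.

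Of 16 measured transcription factors known to act on apolipoprotein or lipid genes, 11, 8 and 11 passed the floor. In the pairs labelled brain, ovary and uterus 4, 2 and 2 were higher in SHT and 3, 2 and 4 lower, with medians of 0.87, -0.31 and -0.27. Over all genes, 24.7%, 23.0% and 13.1% were higher and 21.7%, 23.4% and 8.26% lower in the pairs labelled brain, ovary and uterus. Nr5a1, a nuclear receptor of steroid-producing cells, read 2174 on SHT brain and 34.1 on mock brain, 29.3 on SHT ovary and 40.8 on mock ovary, and 34.3 on SHT uterus and 3495 on mock uterus. Nr5a2, a related receptor of granulosa and liver cells, read 1327 on SHT brain and 2981 on mock uterus and at most 39.4 elsewhere. Nr1h4, another nuclear receptor of the list, read 505 on SHT brain and 739 on mock uterus and at most 117 elsewhere. Nr5a1, Nr5a2 and Nr1h4 were above background on the arrays where Apoa1, Apoa4 and Apoc3 were. The part of these receptors in the level of the apolipoprotein genes was not tested. Hnf4a, the liver regulator of these genes, was under background on all 6, at most 83.0. Pparg, on the same list, was under it too (1.97 to 3.32), also on the arrays with adipocyte markers. Whether the probes of Hnf4a and Pparg can detect their genes is not known here. Srebf1, a regulator of lipid synthesis, was 7.87-fold lower in SHT in the pair labelled brain and 3.32-fold higher in that labelled ovary.

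**Figure D4:**
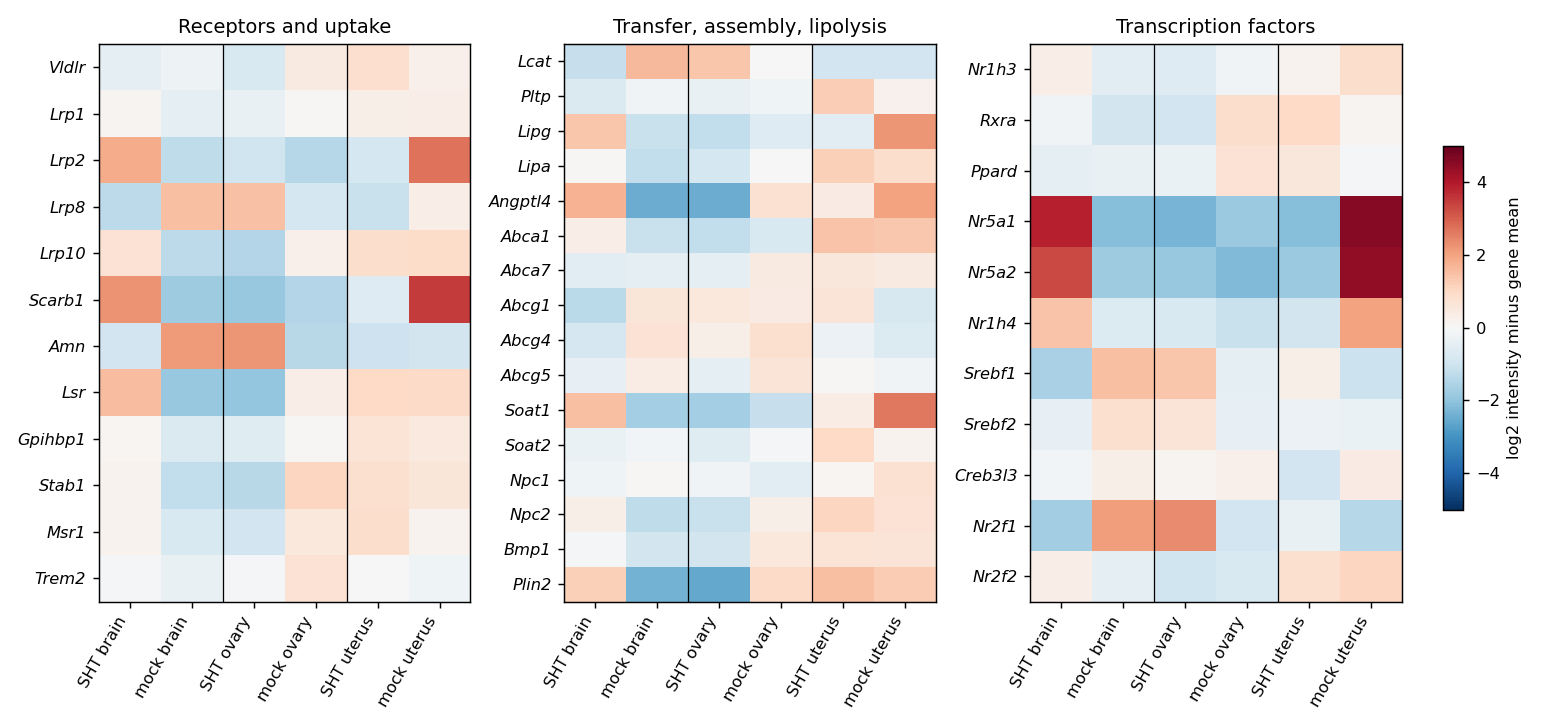
Log2 intensity minus the gene's mean over the 6 arrays (colour) for receptors and uptake genes, genes of lipid transfer, assembly and lipolysis, and transcription factors that were above background on at least 1 array. Scarb1, Nr5a1 and Nr5a2 are highest on the arrays labelled mock uterus and SHT brain, and Lrp8 and Nr2f1 on those labelled SHT ovary and mock brain.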

How the data were processed

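The deposited table holds linear intensity for 26423 probes on each of the 6 arrays. The submitters' processing notes name limma without saying for which step. How the authors corrected background, scaled and filtered the deposited values is unstated in those notes, the labels and the file header. Array medians lay between 179 and 224. The platform annotation named 20377 probes with 1 gene, 0 with several and 6046 with none. Symbols were updated through a RefSeq table of GRCm38.p6 (18213 current, 2126 synonyms, 38 kept as given), and the brightest probe stood for a gene, which left 17742 genes.

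Values were raised to the 5th percentile of each array's positive values (5.66 to 6.66), put on the log2 scale, and SHT minus mock differences were taken relative to the pair's median gene. A difference of at least 2-fold was counted where the pair mean exceeded the median pair mean of all probes. Nothing was tested, as each group is a single array, and the small number of arrays sets the precision. The median shift, the 2-fold counts and the likeness ranks were checked on simulated arrays where few genes, all bright, were changed. That check did not cover pairs in which as many as 46.5% of genes differ, nor the bounds used under background. Genes named beyond the 8 were the 3 most alike each, and up to 6 per list by size of difference or level, plus cell-defining markers at background. The measured chromosome neighbours of both clusters are all given. Star, Inha, Zp2, Zp3, Lrp1, Lpl and Pparg were chosen after their values were seen. The 8 genes and all lists were chosen with earlier results of these data known. Python 3.11.15 with pandas 2.3.3 and numpy 2.4.6 was used.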

Additional observations from a re-analysis of the deposited data

Results flagged for a closer look

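Apoa1, Apoa4 and Apoc1 had measured differences of at least 2-fold in opposite directions in 2 labelled tissues, with a pair mean above the level floor in both, and the difference between tissues was not tested. In each case 1 array of the pair was under background, so the log2 differences (SHT minus mock) depend on values that are bounds only. Apoa1 had 3.20 in the pair labelled brain (at least 4.98-fold higher) and -6.06 in that labelled uterus (at least 11.8-fold lower). Apoa4 had 8.73 in the first of these pairs, with a bound of 14.2-fold, and -10.14 in the second, with a bound of 34.8-fold. Apoc1 had 1.12 in the pair labelled brain, where the bound leaves at least 1.61-fold higher, and -3.19 in that labelled ovary (at least 8.17-fold lower). In each of these pairs, markers of brain, ovary or squamous epithelium differed as well, as given with the label check.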

How the results depend on the processing

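Log2 differences of the 8 genes were recomputed under 5 settings, 24 values each. Of these settings 3 (no shift, centring on the 75th percentile and averaging probes) move all 8 genes of a pair by 1 constant, at most 0.15, so they say little. Quantile normalization moved values by at most 0.17. Raising values to the olfactory receptor median moved 13 of 24 by more than 0.19, the value within which 68% of genes fall between the closest arrays. Apoa4 was then 7.76 in the pair labelled brain and -8.55 in that labelled uterus, and no value past 2-fold changed sign. Apoh, under background throughout, fell under 2-fold: from -2.13 to -0.16 in the pair labelled brain and from 1.98 to 0.21 in that labelled ovary. Without a level floor, 1 gene (Apoh) was lower in the pair labelled brain, where 20.2% of all genes were, 3 (Apoa1, Apoc3 and Apoh) were higher in that labelled ovary (20.6%), and 4 (Apoa1, Apoa2, Apoa4 and Apoc3) were lower in that labelled uterus (9.15%). With the floor at the 60th percentile, 2 (Apoa1 and Apoc1) were higher in the pair labelled brain (24.5%) and 1 (Apoa1) was lower in that labelled uterus (7.22%). At 3-fold Apoc1 was no longer counted in the pair labelled brain. Over all genes, without a floor 3579 were lower in the pair labelled brain (2333 with it) and 1623 in that labelled uterus (889 with it). At 3-fold, 1601 were higher and 1504 lower in the pair labelled brain, 1662 and 1642 in that labelled ovary, and 820 and 469 in that labelled uterus, fewer by construction. The pathway lists gave 71 calls over the 3 pairs, 70 after quantile normalization and 66 when the probes of a gene were averaged. With all values raised to the highest background bound, chosen after seeing the data, the most alike genes were Gdf9, Cst12 and Padi6 for Apoa4, Mlf1, Cfap126 and Plekhg4 for Apoa1, Osbpl5, Lrig3 and Cldn1 for Apoc1, and Irx5, Orm1 and Zbed5 for Apoc3. No paired analysis was possible because each group holds 1 array and the labels give no replicate numbers.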

Other observations

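Other genes named for or grouped with the apolipoproteins, including serum amyloid and carrier genes, numbered 18 measured of 23 listed. Clu, also called apolipoprotein J, was above background on all 6 arrays and read 31185 on SHT brain and 35410 on mock brain, 35921 on SHT ovary and 11178 on mock ovary, and 13273 on SHT uterus and 40812 on mock uterus. It was 2.94-fold higher in SHT in the pair labelled ovary and 3.04-fold lower in that labelled uterus, so its low arrays were those with squamous markers. Lcn2, a lipocalin of mucosal defence, read 29127 on SHT brain and 27698 on SHT uterus, against 70.5 on mock brain and 742 on mock uterus, and 90.5 on SHT ovary against 1817 on mock ovary. Saa3, an acute-phase apolipoprotein, read 2375 on SHT brain and 1180 on SHT uterus, against 137 on mock brain and 224 on mock uterus, and 116 on SHT ovary against 1524 on mock ovary. Lcn2 and Saa3 thus separated SHT brain from mock uterus, the arrays that shared high Apoa1, Apoa4 and Apoc3. Apof, a regulator of lipid transfer, was above background on mock uterus alone, at 372. Apom, a carrier of sphingosine phosphate, stayed between 53.8 and 62.4, under background on all 6.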
